A study of Mus musculus with 6 samples.

Results

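The GABA-B receptor is a class C G protein-coupled receptor for the inhibitory transmitter GABA, and its 2 subunit genes Gabbr1 and Gabbr2 were examined here together with Kctd8, Kctd12 and Kctd16, which encode auxiliary subunits. The members were taken by symbol, and all 5 were found among the 54658 genes listed in each count table. The tissue was nucleus accumbens, a ventral striatal region, of male C57BL6 mice aged 8 weeks. Of the 6 libraries, 3 came from samples that had received a herpes simplex virus (p1005+) encoding Gas5, a long noncoding RNA, together with EGFP, called Gas5 here. The other 3 had received the same vector with EGFP alone and are called GFP. Every sample thus received a virus and EGFP, and uninjected tissue was not analysed here. Which cells the vector entered is not stated in the labels, nor is whether each library stands for 1 mouse or for pooled mice. The p-values therefore reflect variation among these libraries, which may be technical.

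In the receptor, Gabbr1 holds the site that binds GABA, and Gabbr2 brings Gabbr1 to the cell surface and couples to G proteins of the Gi and Go type. The KCTD proteins bind the C-terminal tail of Gabbr2 together with the beta and gamma subunits of the G protein and set the timing of the response. KCTD12 makes the response desensitize, whereas KCTD8 and KCTD16 do not. Downstream, the receptor opens inwardly rectifying potassium channels, inhibits presynaptic calcium channels and inhibits adenylyl cyclase, and in the striatum it acts both on spiny neurons and on the terminals of incoming axons.

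The sequences just before the annotated starts show how unlike the promoters of the genes compared below are. They were taken from RefSeq on build GRCm38.p6, 5′ to 3′ on the strand of the gene, with capitals marking the GC box GGGCGG and the core TGACG of the cyclic AMP response element on either strand. Gabbr2, the subunit gene that passed the test below, is shown at chr4:46991874-46991964 on the minus strand, which leaves out 159 bases that the files count as part of the gene. Its partner Gabbr1 is shown at chr17:37045716-37045965 on the plus strand. Kctd8, the auxiliary subunit gene with the largest positive difference, is shown at chr5:69341710-69341959 on the minus strand.
Gabbr2: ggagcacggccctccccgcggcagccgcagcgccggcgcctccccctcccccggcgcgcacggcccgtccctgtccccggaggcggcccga
Gabbr1: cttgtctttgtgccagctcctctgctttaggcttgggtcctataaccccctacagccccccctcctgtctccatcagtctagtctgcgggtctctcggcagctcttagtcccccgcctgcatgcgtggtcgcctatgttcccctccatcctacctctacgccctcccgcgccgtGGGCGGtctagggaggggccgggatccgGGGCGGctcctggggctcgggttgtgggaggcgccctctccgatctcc
Kctd8: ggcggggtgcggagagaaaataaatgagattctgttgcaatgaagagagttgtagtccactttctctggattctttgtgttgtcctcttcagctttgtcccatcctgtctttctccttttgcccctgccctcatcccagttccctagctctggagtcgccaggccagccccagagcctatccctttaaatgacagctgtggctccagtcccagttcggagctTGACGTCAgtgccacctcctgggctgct
Promoters in the table were available for 4 of the 5 members, and Kctd16 was not among them. Over the 250 bases before the RefSeq start, G and C made up 80.8% of the Gabbr2 promoter, 66% of the Gabbr1 promoter and 53.6% of the Kctd8 promoter, against a median of 52.4% over 32851 promoters. Gabbr1 and Gabbr2 each had 2 GC boxes, those of Gabbr2 lying outside the stretch printed, and Kctd12 had 7. GC boxes stood in 32.7% of all promoters. Kctd8 held the full response element TGACGTCA, which contains the core on both strands and stood in 1.55% of all promoters, and Kctd12 held 1 core, a sequence found in 17.8%. The glucocorticoid receptor core AGAACA was in none of these 4 windows and in 16.1% of all promoters. These matches describe letters, not bound sites.

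Total counts per library, to 6 digits, ranged from 32359100 to 56081600. Gas5 itself stood at 22.6, 23.3 and 23.6 CPM (counts scaled to a common library size, with TMM factors) in the Gas5 libraries, against 18.6, 16.5 and 18.3 CPM in the GFP libraries, a 1.30-fold higher level with an edgeR adjusted p of 0.0163. That call was lost without GFP B (adjusted p 0.0727) or GFP C (adjusted p 0.0677). Markers of medium spiny neurons, the principal cells of the accumbens, were all tested (14 genes), and 0 were called by edgeR or limma-voom and 1 by DESeq2, with 1 at an unadjusted p under 0.05. Among the marker lists, those of cortical excitatory neurons differed most in mean log2 CPM between the groups. That mean log2 CPM over 11 listed genes, called the cortical marker score here, was 1.90, 2.51 and 2.67 in Gas5 libraries A to C and 3.51, 3.97 and 3.99 in GFP libraries A to C. Of 10 tested genes of that list, 7 were lower and 0 higher in the Gas5 libraries, Slc17a7 among them at 24.5 CPM in Gas5 and 206 CPM in GFP. Cux2 was at 91.2 CPM in Gas5 and 92.0 CPM in GFP, while Neurod1, whose whole span other genes cover, was listed at 0.

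Other marker lists moved as well, and their part in the results below was not tested apart from the fits with the cortical and microglia scores. All 10 oligodendrocyte markers had negative log2 fold changes, 7 of them at p below 0.05 before adjustment and 1 called by edgeR, and their score was 6.22 to 6.45 in Gas5 and 6.51 to 6.60 in GFP, without overlap. Of 9 tested astrocyte markers 7 were positive and 1 was called, Aqp4, 1.30-fold higher with an edgeR adjusted p of 0.0486. The astrocyte score was 4.90 to 5.17 in Gas5 and 4.83 to 4.95 in GFP, while the summed CPM ran from 2559 to 3059 in Gas5 and from 2912 to 3113 in GFP. In the claustrum list 1 of 3 tested genes was called, Nr4a2, 11.6-fold lower (edgeR adjusted p 0.0047). In the septal and preoptic list 7 of 10 tested genes had negative and 3 positive log2 fold changes, with a median of -0.11. Of these 10, 1 was called higher, Calcr, 4.68-fold (edgeR adjusted p 0.0081), and 1 was called lower.

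Of the 5 members, all tested, 1 fell and 0 rose. Gabbr2 was 1.40-fold lower in the Gas5 libraries, whereas Gabbr1, Kctd8, Kctd12 and Kctd16 did not pass the test. Over all 17563 tested genes, 5.44% passed in either direction, 1.48% higher and 3.96% lower. The groups did not overlap for 2 of the 5 members, both lower, against 27.7% of all tested genes, 13.8% higher and 13.9% lower. A gene was called where the quasi-likelihood test of edgeR, adjusted over all tested genes by the method of Benjamini and Hochberg, gave p under 0.05. With 5 genes a single call is too few to set against that background share.

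Gabbr2, the subunit that couples to the G protein, stood at 183, 182 and 184 CPM in Gas5 libraries A to C. In GFP libraries A to C it stood at 228, 265 and 277 CPM. Every Gas5 library lay below every GFP library, and the Gas5 libraries were close together while GFP A lay well below GFP B and C. The means were 183 ± 1.30 CPM in Gas5 and 257 ± 25.6 CPM in GFP (SD, n = 3 each). This gave a log2 fold change of -0.49, standard error 0.0714, with a 95% interval from -0.65 to -0.32 and an edgeR adjusted p of 0.0115, which placed the gene 156 in the order of p over all genes. The raw counts behind these values were 7898, 7781 and 7149 in Gas5 and 12678, 10200 and 8812 in GFP.

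The call of Gabbr2 depended on which GFP libraries were in the fit. Without GFP B the log2 fold change was -0.46 with an edgeR adjusted p of 0.0656, and without GFP C it was -0.43 with an adjusted p of 0.0577, so the call was lost in both cases. The Gabbr2 call was kept without GFP A and without each Gas5 library. Over all tested genes, the calls numbered 955 as reported, 115 without GFP B and 107 without GFP C. Gas5 libraries also had lower cortical marker scores. In a fit that included that score, Gabbr2 had a log2 fold change of -0.24 (standard error 0.181, edgeR adjusted p 0.998). Within the GFP group, library A had the lowest score and the lowest Gabbr2. Within the Gas5 group the score ran from 1.90 to 2.67 while Gabbr2 stayed between 182 and 184 CPM. The score did not overlap between the groups, so group and score cannot be told apart in this fit. In bulk tissue fewer cells of a type cannot be told apart from less RNA per cell.

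In build GRCm38, Gabbr2 occupies chromosome 4 from 46662305 to 46991873 on the minus strand, and no other listed gene overlaps it. The counts cover the whole span of a gene, introns included, and exons make up 2.03% of the 329.569 kb of Gabbr2. Reads from unspliced RNA therefore count toward the gene. Among the 1055 tested genes that span more than 200 kb, the class to which Gabbr2, Kctd8 and Kctd16 belong, 16.1% were called, 145 lower and 25 higher, with a median log2 fold change of -0.06. With the trend of fold change along gene span removed, Gabbr2 had a log2 fold change of -0.39, 0.10 nearer to 0 by the value of that trend (-0.10).

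Gabbr1, which binds GABA, stood at 432, 459 and 451 CPM in Gas5 libraries A to C and at 474, 486 and 460 CPM in GFP libraries A to C. The groups did not overlap but lay within a narrow range, and the log2 fold change of -0.08 (standard error 0.0512, 95% interval from -0.20 to 0.04, edgeR adjusted p 0.409) was not called. Its interval lies above that of Gabbr2 (-0.65 to -0.32). The gene spans 29.102 kb on the plus strand of chromosome 17, from 37045966 to 37075067, with 26.7% exon and no overlapping gene. With the cortical marker score or the microglia marker score as a covariate its sign turned, to 0.02 and 0.05 on the log2 scale.

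Since the receptor needs both subunits, the ratio of their counts within a library was compared, which does not depend on library scaling. Counts of Gabbr1 were 2.36, 2.52 and 2.45 times those of Gabbr2 in Gas5 libraries A to C, against 2.08, 1.84 and 1.66 times in GFP libraries A to C. The ratio was higher in every Gas5 library than in every GFP library, by 0.40 on the log2 scale. The exact permutation test, 2-sided, gave p = 0.1, the smallest that 3 against 3 libraries allow, and 0.2 after adjustment over the 4 ratios tested. The difference ranged from 0.32 to 0.48 when each library was left out in turn.

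**Figure D1:**
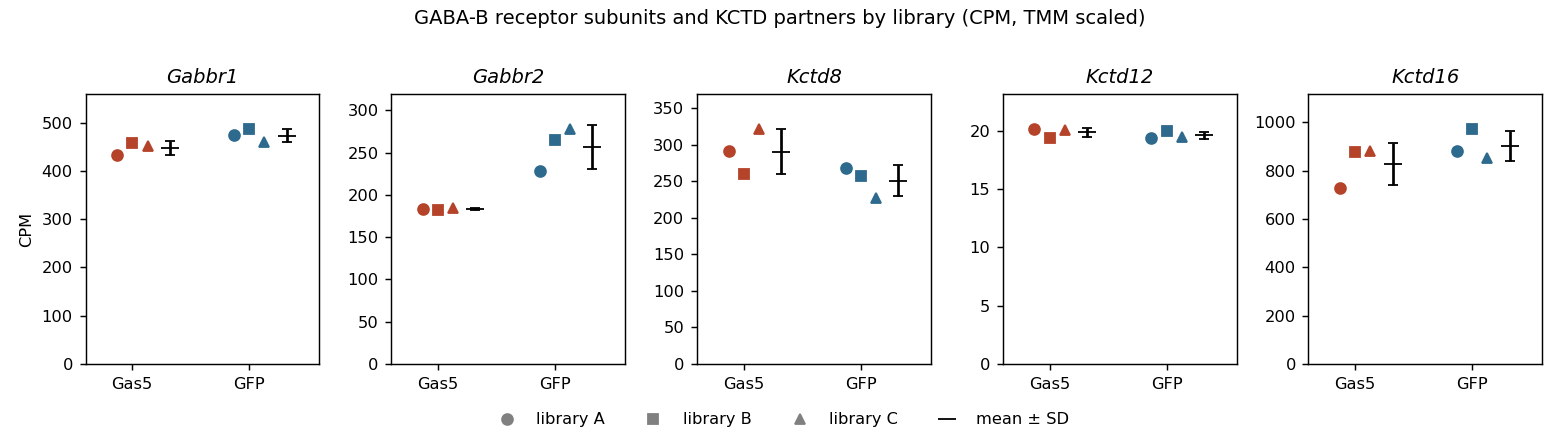
Level of each member in CPM (y axis, from 0, 1 scale per gene) in the Gas5 libraries (red, left) and the GFP libraries (blue, right) by library letter, with mean and SD in black. Gabbr2 lies at 182 to 184 CPM in Gas5 and at 228 to 277 CPM in GFP, while the Kctd8, Kctd12 and Kctd16 values of the groups overlap.

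The auxiliary subunit genes differed in direction and none was called by edgeR, by DESeq2 or by limma-voom, with Kctd8 alone at an unadjusted p under 0.05 by edgeR. Kctd8, which does not make the response desensitize, stood at 291, 260 and 321 CPM in Gas5 libraries A to C and at 269, 257 and 227 CPM in GFP libraries A to C. Gas5 B lay below GFP A, so the groups overlapped. Its log2 fold change was 0.21 (standard error 0.0890, 95% interval from 0.01 to 0.41, unadjusted p 0.0434, edgeR adjusted p 0.215). The value was positive in all 16 alternatives tried, between 0.12 and 0.29, and the adjusted p went down to 0.0826 without Gas5 B. The gene spans 232.395 kb on the minus strand of chromosome 5, from 69109285 to 69341679. Other genes cover 7.02% of that span, and the 8 genes that overlap it were listed at 0 in every library.

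Kctd16, which like Kctd8 does not make the response desensitize, had the highest counts of the 5. It stood at 729, 876 and 881 CPM in Gas5 libraries A to C and at 883, 971 and 854 CPM in GFP libraries A to C. Gas5 A lay below the other 5 libraries, which overlapped between the groups. The log2 fold change of -0.12 (standard error 0.0879, 95% interval from -0.32 to 0.08, edgeR adjusted p 0.465) was not called, and it was -0.04 without Gas5 A. Gas5 A was also the library with the lowest sum over the 14 medium spiny neuron markers, at 6967 CPM, against 8872 and 8718 CPM in Gas5 B and C and between 7964 and 8922 CPM in the GFP libraries. By mean log2 CPM over the same markers, GFP C was as low, at 8.033 against 8.034 in Gas5 A. The part of either measure in the Kctd16 value was not tested. With the cortical or the microglia marker score as a covariate the sign of Kctd16 turned, to 0.29 and 0.25 on the log2 scale with adjusted p of 0.998 and 0.731. Kctd16 lies on the plus strand of chromosome 18, from 40258361 to 40531168, with no overlapping gene listed.

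Kctd12 encodes the auxiliary subunit that, among the members, makes the response desensitize. Its values were 20.1, 19.4 and 20.1 CPM in Gas5 libraries A to C. In GFP libraries A to C they were 19.4, 19.99 and 19.5 CPM. The groups overlapped within about 1 CPM. The fitted difference was 0.02 on the log2 scale, standard error 0.0521, with a 95% interval from -0.10 to 0.14 and an edgeR adjusted p of 0.874. The gene lies on the minus strand of chromosome 14 from 102976581 to 102982637, all of it annotated as exon. Other listed genes, Gm26778 on the opposite strand and Mir5130, cover 72.5% of it, and both were listed at 0 in every library, like all 12816 genes whose whole span other genes cover. Kctd12 was therefore measured on 1664 bases of untranslated sequence, 1639 of them the 3′ end of the gene, and on 0 of its 981 coding bases. Mouse microglia also transcribe Kctd12. The summed microglia markers were 365, 336 and 350 CPM in Gas5 libraries A to C and 313, 288 and 321 CPM in GFP. P2ry12 and Itgam were listed at 0, and other listed genes cover 100% and 99.9% of their spans. Csf1r was the most abundant of the 10 tested. All 10 had positive log2 fold changes, 7 had an unadjusted p under 0.05, and 0 were called by edgeR, 1 by limma-voom and 3 by DESeq2. With the microglia marker score as a covariate Kctd12 had a log2 fold change of 0.02 (standard error 0.123). That score did not overlap between the groups, so group and score cannot be told apart in this fit.

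The balance between the auxiliary subunits and the receptor was compared in the same way as that of the subunits. Counts of Kctd12 relative to Gabbr2 were higher in the Gas5 libraries by 0.50 on the log2 scale, with no overlap between the groups, at ratios of 0.110, 0.107 and 0.109 in Gas5 libraries A to C and 0.0851, 0.0756 and 0.0702 in GFP libraries A to C. The exact permutation p was 0.1, the smallest possible, and 0.2 after adjustment over 4 ratios. Gabbr2 is the denominator both here and in the ratio of the receptor subunits. Its own log2 fold change was -0.49, against 0.02 for Kctd12 and -0.08 for Gabbr1. Neither ratio is therefore independent of the Gabbr2 difference or of the other. Kctd8 relative to Kctd16 differed by 0.34 with overlap (exact permutation p = 0.2, adjusted 0.267), and Kctd12 relative to Kctd16 by 0.14 with overlap (exact permutation p = 0.3, adjusted 0.3). Without Gas5 A this last difference was 0.05.

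Levels between genes were compared as CPM per kb of span that no other listed gene covers, a scale that favours genes with a large exon share. Gabbr1 was highest at 15.4 ± 0.476 CPM per kb in Gas5 and 16.3 ± 0.443 in GFP (SD, n = 3 each). Kctd12 followed at 11.9 ± 0.244 in Gas5 and 11.8 ± 0.194 in GFP, Kctd16 at 3.04 ± 0.317 in Gas5 and 3.31 ± 0.224 in GFP, and Kctd8 at 1.35 ± 0.142 in Gas5 and 1.16 ± 0.1003 in GFP. Gabbr2 was lowest at 0.556 ± 0.00393 CPM per kb in Gas5 and 0.779 ± 0.0776 in GFP. The order was the same in all 6 libraries, and neighbours in it differed by at least 1.23-fold in each. Since the exon share is 2.03% for Gabbr2, 1.45% for Kctd8, 26.7% for Gabbr1 and 100% for Kctd12, the order does not give the order of mature transcripts.

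**Figure D2:**
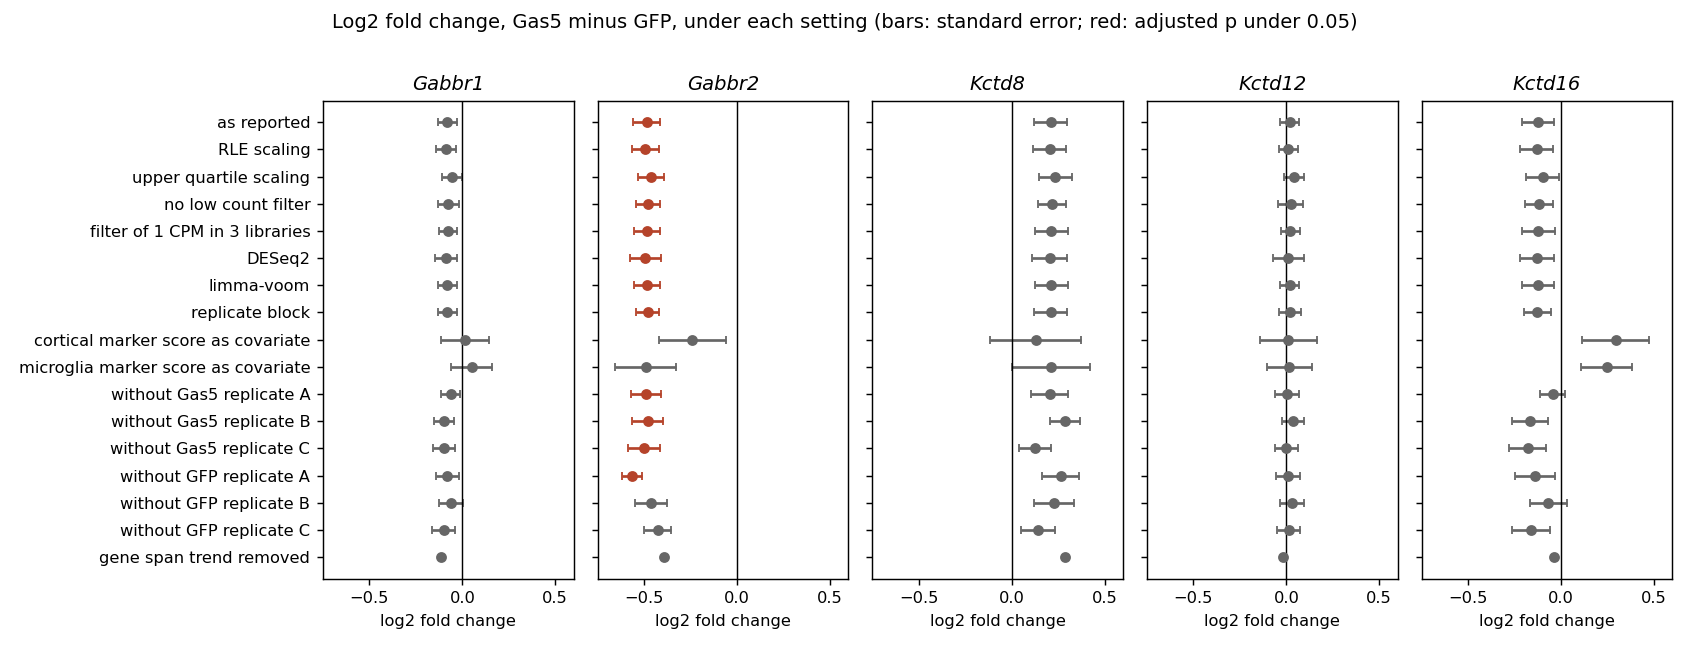
Log2 fold change of each member, Gas5 minus GFP (x axis), as reported and under 16 alternatives (rows), with bars for the standard error and red for an adjusted p under 0.05, the last row having neither error nor test. Gabbr2 is negative in every row, from -0.57 to -0.24, and loses the call in 4 of them, while Gabbr1 and Kctd16 change sign under the 2 marker score covariates.

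The most similar profiles were sought among 9549 named genes whose mean log2 CPM reached 3 or more, as the root mean square distance between centred log2 CPM over the 6 libraries. Nearest to Gabbr2 were Map3k9, Slc16a10 and Ube2ql1, at distances of 0.0293, 0.0324 and 0.0364. All of them were called lower, with log2 fold changes of -0.49, -0.52 and -0.51. The distance uses the same 6 libraries as the test, so a fold change near that of Gabbr2 follows from the choice and is no separate result. Nearest to Kctd8 were Runx1t1, Rit2 and Foxo1, at 0.0305, 0.0333 and 0.0424. Nearest to Kctd16 were Ngef, Tmtc1 and Cplx2, at 0.0143, 0.0204 and 0.0275. Gabbr1 was nearest to Fkbp8, Swap70 and Mllt6, at 0.0111, 0.0132 and 0.0132, and Kctd12 to Evl, Papola and Srrm1, at 0.00772, 0.00777 and 0.00837. Small distances for Gabbr1 and Kctd12 go with profiles that are nearly flat.

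The partners of the receptor were examined in 7 lists with 72 tested genes, of which 2 were higher and 10 lower. That is 16.7% of them, against 5.44% of all tested genes. The lists were chosen with earlier results of these data known, so this share is not an independent result. Over all tested genes the share called rose with gene span, from 2.82% up to 10 kb to 16.1% over 200 kb. The part of gene span in the partner share was not tested. Of the 12 calls, 4 came from the potassium channels. Without GFP B or without GFP C 2 of these calls were left, the potassium channel genes Kcnj6 and Kcnj3, and adjustment for the cortical marker score left 0. That fit also had larger standard errors, for example 0.206 for Gng4 against 0.0719 without the score, so a lost call in it does not show that a difference was gone. Some log2 fold changes were further from 0 in it, at -0.55 for Gng4 and -0.54 for Mpdz. That of Kcnj9 was -0.52, against -0.55 without the score. Others were nearer to 0, at -0.06 for Gnb1, -0.09 for Cacnb3 and -0.02 for Prkaa2.

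The inwardly rectifying potassium channels gated by G proteins showed the largest differences. All 4 genes were called, 3 lower and 1 higher. The median log2 fold change was -0.76, against 0.02 over all tested genes. Kcnj6, a pore subunit on which the receptor current of many neurons depends, stood at 25.0, 21.8 and 28.5 CPM in Gas5 libraries A to C and at 56.1, 81.2 and 87.0 CPM in GFP libraries A to C. It was 2.98-fold lower with an edgeR adjusted p of 0.00473. Kcnj3, the subunit that assembles with it, stood at 61.9, 61.8 and 79.4 CPM in Gas5 and at 118, 133 and 145 CPM in GFP, 1.95-fold lower with an edgeR adjusted p of 0.0060. Both kept the call without each library in turn.

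Kcnj9, a further subunit of these channels in neurons, stood at 16.9, 14.4 and 16.2 CPM in Gas5 and at 21.1, 24.5 and 24.2 CPM in GFP, 1.47-fold lower with an edgeR adjusted p of 0.0119. Removing GFP B or removing GFP C ended its call. Kcnj5, best known as the subunit of the cardiac channel, went the other way, at 2.95, 1.71 and 1.57 CPM in Gas5 and 0.882, 0.856 and 0.756 CPM in GFP. It was 2.48-fold higher with an edgeR adjusted p of 0.0327, on low counts, and the call ended when any GFP library was removed. Adjusted for the cortical marker score, the log2 fold changes were -0.87 for Kcnj6, -0.37 for Kcnj3, -0.52 for Kcnj9 and -0.17 for Kcnj5, and none was called at an edgeR adjusted p of 0.998.

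**Figure D3:**
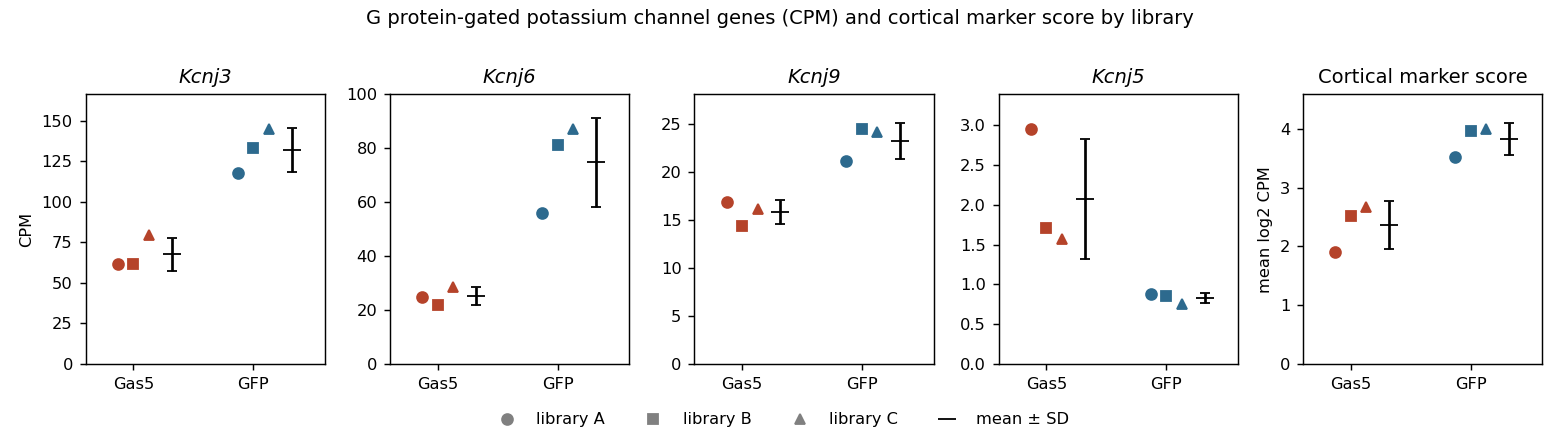
Levels of the potassium channel genes Kcnj3, Kcnj6, Kcnj9 and Kcnj5 in CPM and the cortical marker score in mean log2 CPM (y axes, from 0) in the Gas5 libraries (red, left) and GFP libraries (blue, right), with mean and SD in black. The first 3 genes and the score are lower in every Gas5 library than in every GFP library, and Kcnj5 is higher, most so in Gas5 A.

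Among G protein subunits 2 of 16 tested genes were lower and 0 higher, with a median log2 fold change of -0.04. They were Gng4, a gamma subunit, at 21.8 ± 1.37 CPM in Gas5 and 29.7 ± 2.20 CPM in GFP (SD, n = 3 each, edgeR adjusted p 0.0154), and Gnb1, a beta subunit, at 297 ± 7.94 CPM in Gas5 and 345 ± 9.26 CPM in GFP (edgeR adjusted p 0.0401). The call of Gng4 was lost without GFP B or GFP C, and that of Gnb1 when any 1 of the 6 libraries was removed and with upper quartile scaling.

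Of 10 presynaptic calcium channel genes 1 was lower, Cacnb3, a beta subunit, at 53.4 ± 2.53 CPM in Gas5 and 67.8 ± 3.07 CPM in GFP (SD, n = 3 each, edgeR adjusted p 0.0135), and its call was lost without GFP B or GFP C. Cacna1a, the pore of P/Q-type channels, missed the threshold at -0.33 on the log2 scale (edgeR adjusted p 0.0510). It was called in 5 of the alternatives, among them RLE scaling (adjusted p 0.0497), no low count filter (0.0080), DESeq2 (0.0027) and the fit without Gas5 B (0.0353), and the list then held 2 or 3 calls. The median of the list was -0.04.

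Of 15 regulators 4 were lower and 0 higher, with a median log2 fold change of -0.12. Rgs6 and Rgs7, which speed the end of Go signalling, were 1.37-fold and 1.26-fold lower, with edgeR adjusted p of 0.0336 and 0.0453. Mpdz, a scaffold that binds Gabbr2, was 1.33-fold lower (edgeR adjusted p 0.0193), and Prkaa2, a catalytic subunit of the AMP-activated kinase that phosphorylates the receptor, was 1.20-fold lower (edgeR adjusted p 0.0344). All 4 calls were lost without GFP B and without GFP C, those of Rgs6 and Prkaa2 also without Gas5 C, that of Prkaa2 without Gas5 A, and that of Rgs7 when any 1 library was removed and with upper quartile scaling. Adjusted for the cortical marker score, which was lower in every Gas5 library than in every GFP library, Rgs6 and Rgs7 had log2 fold changes of 0.09 and 0.13 and Prkaa2 of -0.02, whereas that of Mpdz was -0.54.

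Genes of GABA supply had positive log2 fold changes in 7 of 7 tested members, with a median of 0.16, and 1 was called. Of all tested genes 54.2% had positive values. Gad2, a synthesizing enzyme, stood at 549, 622 and 554 CPM in Gas5 libraries A to C and at 497, 444 and 450 CPM in GFP libraries A to C, 1.24-fold higher with an edgeR adjusted p of 0.0435. It was no longer called when Gas5 B, when Gas5 C, when GFP B or when GFP C was removed. Slc6a11, a GABA transporter of astrocytes, was highest in Gas5 A at 114.7 CPM. It stood at 65.9 and 70.2 CPM in Gas5 B and C and at 54.7 to 67.9 CPM in GFP (edgeR adjusted p 0.235 between the groups). Gas5 A also had the highest astrocyte score, at 5.17, but the lowest summed CPM of the astrocyte markers, at 2559. Adjusted for the cortical marker score, Gad2 was at 0.26 on the log2 scale. Abat, which breaks down GABA, was at 0.21 on the log2 scale (edgeR adjusted p 0.110).

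Of the 17 other KCTD genes tested 0 were called by edgeR, although 2 had p below 0.05 before adjustment. These were Kctd17, at 53.9 CPM in Gas5 and 68.0 CPM in GFP with an edgeR adjusted p of 0.0930, and Kctd12b, the paralog of Kctd12 on chromosome X, at 3.60 CPM in Gas5 and 2.64 CPM in GFP with an edgeR adjusted p of 0.122. DESeq2 called 1 of them, Kctd17, with an adjusted p of 0.0251, and limma-voom 0. Other edgeR fits called Kctd17 with no low count filter (adjusted p 0.0211) and with a replicate block (adjusted p 0.0485). Its sign turned with the cortical or the microglia marker score as a covariate. Among the genes whose proteins bind the sushi domains of the longer Gabbr1 isoform, 0 of 3 were called by edgeR, and likewise 0 by DESeq2 or limma-voom, with 0 below 0.05 before adjustment. On the log2 scale App was at -0.08 (edgeR adjusted p 0.417) and Pianp at -0.07 (0.445).

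**Figure D4:**
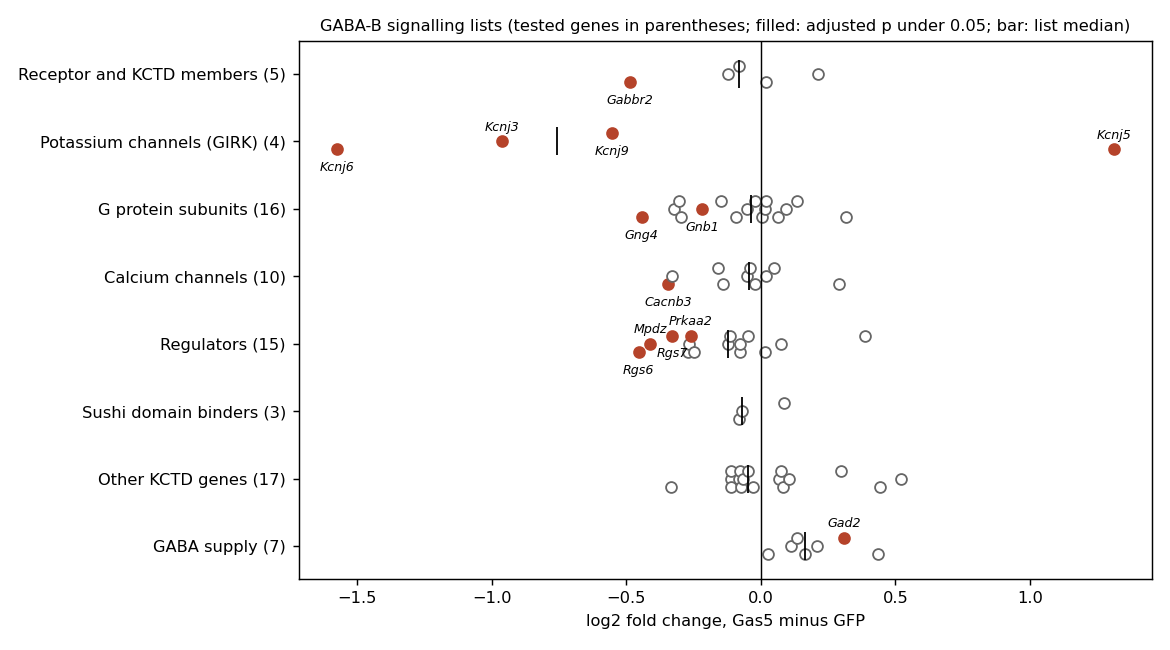
Log2 fold change, Gas5 minus GFP (x axis), of each tested gene in the receptor group and the 7 partner lists (rows, number tested in parentheses), filled red where the adjusted p was under 0.05 and open otherwise, with a bar at the list median. Kcnj6, Kcnj3 and Kcnj9 lie furthest to the left and Kcnj5 furthest to the right, and Gad2 is the 1 called gene of GABA supply.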

How the data were processed

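RNA from nucleus accumbens was depleted of ribosomal RNA and sequenced with a kit that keeps strand, per the labels' protocols. The authors deposited raw read counts per gene over its whole span, 1 table per library. Per the submitters' processing notes, featureCounts (version 1.5.0-p3) and STAR (version 2.7.0) were among the tools, with Trim Galore (version 0.4.4), edgeR (version 3.20.9), bcl2fastq (version 1.8.4) and build GRCm38.p6. Not given in the sources used here are how strand and overlapping genes were treated and which annotation was used. In the tables, genes wholly covered by others had 0 counts.

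The 6 tables were merged, genes with low counts were removed with filterByExpr, libraries were scaled by TMM, and Gas5 was tested against GFP with the quasi-likelihood test of edgeR 4.0.16 in R 4.3.3 on all 6 libraries, with Benjamini-Hochberg adjustment over 17563 genes and a threshold of 0.05. Alternatives used DESeq2 1.42.0, limma-voom 3.58.1, other scalings and filters, marker scores as covariates, a loess trend along gene span, and each library left out. The test was checked on simulated data with 200 changed genes among 17376 tested. It called 68% of those changed by 0.5 on the log2 scale in either direction and 95% of those changed by 1. There were 11 false calls. Total counts were 41195700, 42524900 and 38605100 in Gas5 and 56081600, 39766800 and 32359100 in GFP, and the common biological coefficient of variation was 8.28%. Ratios within libraries were tested by exact permutation (scipy 1.17.1). Genes named were the members, the called genes and the 2 of lowest p in each list, the 3 most similar profiles per member and, where a marker list has examples, the 2 of highest CPM, 1 of which is not reported here; genes at 0, Gm26778, Mir5130, Slc6a11, Aqp4, Nr4a2 and Calcr were added after their values were seen. Members and lists were chosen with earlier results of these data known.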

Additional observations from a re-analysis of the deposited data

How the results depend on the processing

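The sign of Gabbr2 and of Kctd8 held under every alternative tried. Without each library in turn the log2 fold change of Gabbr2 was -0.57 to -0.43 and that of Gas5 0.33 to 0.42, the genes called numbered 107 to 847 and the partner genes called 2 to 12, the fewest of all genes without GFP C. All genes called numbered 955 as reported, 1658 with no low count filter and 1491 by DESeq2. Whether the replicate letters pair the libraries is not settled. Deviations from the group mean correlated at 0.164, 0.179 and -0.0936 for the same letters A, B and C. For unlike letters the correlations ran from -0.227 to 0.0563. The fit with a replicate block called 1438 genes and 19 partner genes, Cacna1a among them (edgeR adjusted p 0.0126), and changed no member's call. Adjusted for the cortical marker score, 0 genes and 0 partner genes were called, with 424 genes at an unadjusted p under 0.05. The log2 fold changes were then 0.37 for Gas5, 0.016 for Gabbr1, -0.24 for Gabbr2, 0.29 for Kctd16, 0.20 for Kctd17, -0.19 for Kctd12b, -0.17 for Kcnj5, 0.12 for Cacna1a, 0.094 for Rgs6, 0.13 for Rgs7, -0.55 for Gng4, -0.54 for Mpdz, -0.058 for Gnb1, -0.092 for Cacnb3 and -0.025 for Prkaa2. With the microglia marker score 1 gene and 0 partner genes were called, and the values were 0.28 for Gas5, 0.050 for Gabbr1, -0.49 for Gabbr2, 0.25 for Kctd16, 0.060 for Kctd17, 0.51 for Kcnj5, -0.21 for Rgs6, -0.15 for Rgs7, -0.14 for Prkaa2, -0.042 for Cacna1a and 0.027 for Kctd12b. With the gene span trend removed Gabbr2 was at -0.39 and Kctd12 at -0.015. The cause of these changes was not tested. Neither marker score overlapped between the groups, so group and score cannot be told apart in the fits with a marker score. Counts of Kcnj5, between 24 and 127 per library, limit its precision.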
